A study of Rattus norvegicus with 9 samples.

Results

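The 9 genes described here are classical markers of amacrine and horizontal cells, the inhibitory interneurons of the retina: Slc6a9, Gad1, Gad2, Slc32a1, Tfap2a, Tfap2b, Calb1, Calb2 and Meis2. They were chosen by name, and each matched exactly 1 transcript cluster (the array's unit for a gene) among 18166 genes that have a cluster with a single symbol. They were measured on 9 arrays of retinal ganglion cells, the neurons whose axons form the optic nerve, taken from Sprague Dawley rats at postnatal day 4 and isolated by immunopanning (binding to dishes that carry antibodies). All cells were electroporated with a green fluorescent protein plasmid (pMAX-GFP) and with 1 further construct, sorted for green fluorescence the next day, cultured for 2 more days and lysed 3 days after transfection. The further construct was mCherry in the 3 control arrays, wild-type Set-β in the 3 arrays called wt_Set and myr-Set-β in the 3 called myr_Set. Set is a nuclear histone chaperone and inhibitor of protein phosphatase 2A, and a myristoyl group anchors proteins at membranes. Replicates are called biological in the titles, but the labels do not say whether they were separate litters or cultures, so each p-value reflects only how much these arrays vary, which may be technical.

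Amacrine cells signal with GABA or glycine. GABA is made from glutamate by the glutamic acid decarboxylases Gad1 and Gad2, both transmitters are loaded into vesicles by Slc32a1, and the transporter Slc6a9 takes glycine up again. The AP-2 transcription factors Tfap2a and Tfap2b act in the development of amacrine and horizontal cells, and the homeobox factor Meis2 marks GABAergic amacrine cells. Calb1 (calbindin) and Calb2 (calretinin) bind calcium and label horizontal cells, many amacrine cells and also subsets of ganglion cells. In a purified ganglion cell culture these genes can therefore report other neurons as well as genes that ganglion cells share with them. Fewer cells of a type and less RNA per cell cannot be told apart in bulk samples.

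Ganglion cell markers were high as a list: the mean log2 intensity of 19 such markers lay between 8.91 and 9.58 on the mCherry arrays, between 8.47 and 8.93 in wt_Set and between 8.21 and 9.03 in myr_Set. The 90th percentile of odorant receptors, the mark of nonspecific signal used below, lay between 6.89 and 7.67. Rbpms ranged from 7.93 to 10.31 over the 9 arrays. Other markers of the list were near that percentile: Pou4f3 (6.57 to 7.79), Eomes (6.97 to 7.68) and Nefh (6.24 to 7.01). Array signal ranges differed, with 3.82 log2 units from the 10th to the 90th percentile on myr_Set replicate 1 and 4.12 to 4.54 on the other arrays. Myr_Set replicate 1 also had the lowest ganglion cell marker level. No cluster carries the symbol Set, so the transfected gene was not used to check the labels.

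Several of the 9 genes were close to nonspecific signal. As a mark of such signal, 1198 odorant receptor genes, which belong to the sensory neurons of the nose, were read on the same arrays. Each of the 9 markers exceeded the receptor median on 9 of 9 arrays. Against the 90th percentile of the receptors, Slc6a9 was higher on 8 arrays, Tfap2b on 6, Meis2 on 4, and Gad2, Calb1 and Calb2 on 2 each. Gad1, Slc32a1 and Tfap2a exceeded it on 0 of 9. Probes differ in background, so these positions are a guide and not a detection call. The same 3 genes also fell below the level filter of the test, a mean log2 intensity of 6.65, and were left out of it, which left 6 of 9 genes tested.

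For 4 of the 9 genes, those of inhibitory transmission, the promoter was found in RefSeq (assembly GRCr8). The 250 bases before the start are shown for Gad2 and Slc6a9, the pair of members whose levels were most alike over the arrays, and for Gad1, the enzyme of the same reaction as Gad2 whose levels ran differently. Capitals mark matches on either strand to GCCNNNGGC (bound by AP-2 factors), TGACAG (bound by Meis and related factors), GGGCGG (the GC box) and CCAAT. No matches overlapped. The windows are chr17:89671468-89671717 for Gad2, chr5:136659826-136660075 for Slc6a9 and chr3:75777202-75777451 for Gad1, all on the plus strand.
Gad2: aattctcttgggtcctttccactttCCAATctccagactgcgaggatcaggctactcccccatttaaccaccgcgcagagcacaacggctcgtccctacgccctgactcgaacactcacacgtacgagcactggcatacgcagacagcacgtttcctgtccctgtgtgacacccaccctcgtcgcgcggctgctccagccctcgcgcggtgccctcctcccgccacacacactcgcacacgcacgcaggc
Slc6a9: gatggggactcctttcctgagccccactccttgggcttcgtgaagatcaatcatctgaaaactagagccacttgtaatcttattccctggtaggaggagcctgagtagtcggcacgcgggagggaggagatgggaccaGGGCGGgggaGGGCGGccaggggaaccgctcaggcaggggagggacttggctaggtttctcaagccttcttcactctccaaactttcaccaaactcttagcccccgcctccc
Gad1: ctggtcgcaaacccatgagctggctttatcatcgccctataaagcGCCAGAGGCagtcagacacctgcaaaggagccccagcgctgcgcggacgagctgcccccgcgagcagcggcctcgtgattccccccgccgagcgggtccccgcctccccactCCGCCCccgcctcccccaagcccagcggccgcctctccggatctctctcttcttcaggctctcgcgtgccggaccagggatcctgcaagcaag
The GCCNNNGGC match of Gad1 starts 205 bases before the start, and this motif is present in 12.6% of 33469 rat promoter windows of the same length. The GC boxes of Slc6a9 start 112 and 102 bases before the start. Gad1 also has a GC box, on the other strand, 93 bases before its start. Of all windows, 30.5% hold at least 1 GC box. The CCAAT of Gad2 starts 225 bases before the start, against 34% of windows. TGACAG, present in 15.8% of windows, was not found in these 3.

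Calretinin and Meis2 had the largest differences between the Set groups and mCherry among the members tested. Calb2 had a log2 intensity of 7.47, 6.67 and 7.96 in mCherry replicates 1, 2 and 3, of 6.60, 6.17 and 6.53 in wt_Set, and of 6.42, 6.59 and 6.75 in myr_Set. Replicates 1 and 3 of mCherry were above every other array, whereas mCherry replicate 2 was level with the Set groups: it lay above all wt_Set arrays and below myr_Set replicate 3. The difference of wt_Set from mCherry was -0.93 ± 0.31 (SE), with group means of 6.43 ± 0.23 and 7.37 ± 0.65 (SD, n = 3) and an adjusted p of 0.447 (limma, Benjamini-Hochberg over 18343 clusters). The difference of myr_Set was -0.78 ± 0.31, also with an adjusted p of 0.447, and it was -0.48 without mCherry replicate 3.

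Meis2 had 7.61, 7.39 and 7.19 in mCherry, 6.80, 6.83 and 6.23 in wt_Set, and 6.97, 6.47 and 7.08 in myr_Set. Its mCherry arrays did not overlap with either Set group. The means were 7.40 ± 0.21, 6.62 ± 0.34 and 6.84 ± 0.32 (SD, n = 3). The differences from mCherry were -0.78 ± 0.24 (SE) in wt_Set and -0.55 ± 0.24 in myr_Set, both with a limma adjusted p of 0.447. These comparisons share the mCherry arrays. The 95% interval ran from -1.32 to -0.23 for wt_Set and from -1.10 to -0.01 for myr_Set.

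**Figure D1:**
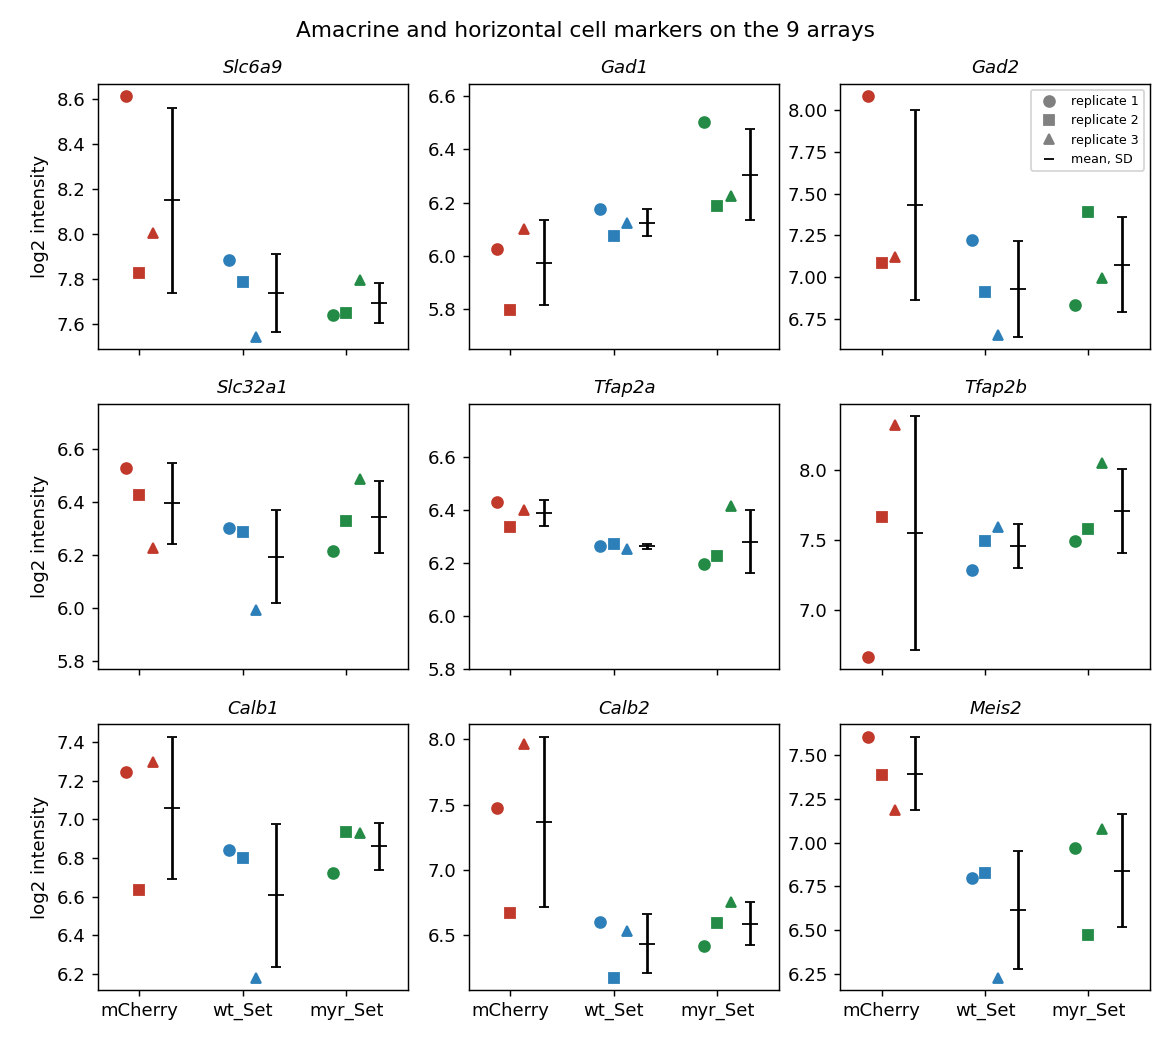
Log2 intensity (vertical axes, each panel spanning its own range) of the 9 markers on the 9 arrays by group (horizontal axes); symbols are replicates 1 to 3, black bars the mean and SD. The mCherry arrays of Meis2 lie above all arrays of both Set groups, whereas mCherry replicate 2 of Calb2 lies among them.

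Calbindin, the other calcium buffer, had 7.25, 6.64 and 7.30 in mCherry, 6.84, 6.80 and 6.18 in wt_Set, and 6.72, 6.94 and 6.93 in myr_Set. As for Calb2, replicate 2 was the lowest of the mCherry arrays, and all 3 groups of Calb1 overlapped. The differences from mCherry were -0.45 ± 0.25 (SE) in wt_Set and -0.20 ± 0.25 in myr_Set, with limma adjusted p of 0.447 and 0.661. Single arrays moved both: the wt_Set difference was -0.24 without wt_Set replicate 3, and the myr_Set difference was -0.41 when mCherry replicate 2 was left out, -0.11 when mCherry replicate 1 was, -0.078 when mCherry replicate 3 was and -0.13 when myr_Set replicate 1 was.

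Among the transmitter genes, Slc6a9 had 8.61, 7.83 and 8.0 in mCherry, 7.88, 7.79 and 7.54 in wt_Set, and 7.64, 7.65 and 7.80 in myr_Set. All myr_Set arrays lay below all mCherry arrays, which ended with quantile normalization and cyclic loess, and wt_Set overlapped with mCherry. The differences from mCherry were -0.41 ± 0.22 (SE) in wt_Set and -0.45 ± 0.22 in myr_Set, each with a limma adjusted p of 0.447. They were -0.18 and -0.22 without mCherry replicate 1, -0.16 and -0.21 after quantile normalization, and again -0.18 and -0.22 after cyclic loess. Gad2 had 8.09, 7.09 and 7.12 in mCherry, 7.23, 6.91 and 6.65 in wt_Set, and 6.84, 7.39 and 7.00 in myr_Set. A single array, mCherry replicate 1, stood above all others. The Gad2 differences of -0.50 ± 0.30 and -0.36 ± 0.30 (limma adjusted p = 0.450 and 0.528) became -0.17 and -0.03 without it.

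Gad1, which was not in the test, ran the other way from Gad2. It had 6.02, 5.79 and 6.10 in mCherry, 6.18, 6.07 and 6.12 in wt_Set, and 6.50, 6.19 and 6.22 in myr_Set, so that every myr_Set array lay above every array of the other groups. In the fit without the level filter the differences from mCherry were 0.15 ± 0.15 (SE) in wt_Set and 0.33 ± 0.15 in myr_Set (limma adjusted p = 0.687 and 0.560). Of all 36685 clusters, 5.45% had all myr_Set arrays above all mCherry arrays and 3.94% had them above all wt_Set arrays. The highest odorant receptor median of any array, 5.93 on myr_Set replicate 1, was on the array with the highest Gad1 value. Its part in the Gad1 values was not tested.

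The vesicular transporter Slc32a1 ranged from 6.23 to 6.53 in mCherry, from 5.99 to 6.30 in wt_Set and from 6.22 to 6.49 in myr_Set, with all groups overlapping. Tfap2a ranged from 6.33 to 6.43 in mCherry, from 6.25 to 6.27 in wt_Set and from 6.20 to 6.41 in myr_Set. Its wt_Set arrays lay below all mCherry arrays, as in 17.7% of all clusters. The differences of both genes from mCherry were between -0.20 and -0.05 and none had a limma adjusted p below 0.626 in the fit without the level filter.

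Tfap2b differed less between groups than between replicates of 1 group. It had 6.66, 7.66 and 8.33 in mCherry, 7.28, 7.49 and 7.60 in wt_Set, and 7.49, 7.58 and 8.06 in myr_Set. In all 3 groups the array called replicate 1 was the lowest and the one called replicate 3 the highest. The differences from mCherry, -0.09 ± 0.38 (SE) in wt_Set and 0.16 ± 0.38 in myr_Set, had limma adjusted p of 0.893 and 0.828. The sign in wt_Set turned with quantile normalization (0.0404) and cyclic loess (0.0808).

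Over all clusters, 0 of 18343 passed an adjusted p of 0.05 in any of the 3 comparisons by limma, a background of 0%, and so did 0 of the 6 members. At an unadjusted p under 0.05 and lower than mCherry stood 2 of 6 members, Calb2 and Meis2, in both Set groups, beside a background of 7.13% of clusters in wt_Set and 6.92% in myr_Set. None of the 6 was higher at that threshold, beside 3.04% and 2.87%. In either direction 1865 clusters (10.2%) and 1796 clusters (9.79%) had such a p. In wt_Set the arrays of 2 members (Calb2 and Meis2) lay below all mCherry arrays, beside 26.4% of clusters. In myr_Set those of 2 members (Slc6a9 and Meis2) did, beside 6.85%. With quantile normalization the counts were 2 and 1, beside 11.6% and 6.23% of clusters, and with cyclic loess also 2 and 1, beside 12.1% and 6.18%. The arrays of 0 of 6 members lay above all mCherry arrays, beside 7.31% and 4.55% of clusters. These backgrounds cover all clusters tested, also those without a single symbol, of which 65.5% and 63.9% were below mCherry. Of single-symbol clusters, the kind the members are, 77.2% and 74.5% were. The shares among single-symbol clusters alone were not computed for these calls.

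The median difference of the 6 members was -0.48 in wt_Set, where all 6 were below mCherry, and -0.40 in myr_Set, where 5 were, beside 65.5% and 63.9% of all clusters tested. All 10714 single-symbol clusters tested had medians of -0.29 and -0.26, and differences below 0 were found in 77.2% and 74.5% of them. Relative to these medians the members stood at -0.19 and -0.14. With quantile normalization the medians of all genes were -0.11 and -0.12 and those of the members -0.39 and -0.22. With cyclic loess they were -0.11 and -0.09 for all genes and -0.43 and -0.26 for the members. In wt_Set the members thus lay farther from all genes under either normalization. In myr_Set they lay nearer to all genes with quantile normalization and slightly farther with cyclic loess. The 19 ganglion cell markers tested had medians of -0.54 and -0.60, with 19 of 19 below mCherry in both groups.

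**Figure D2:**
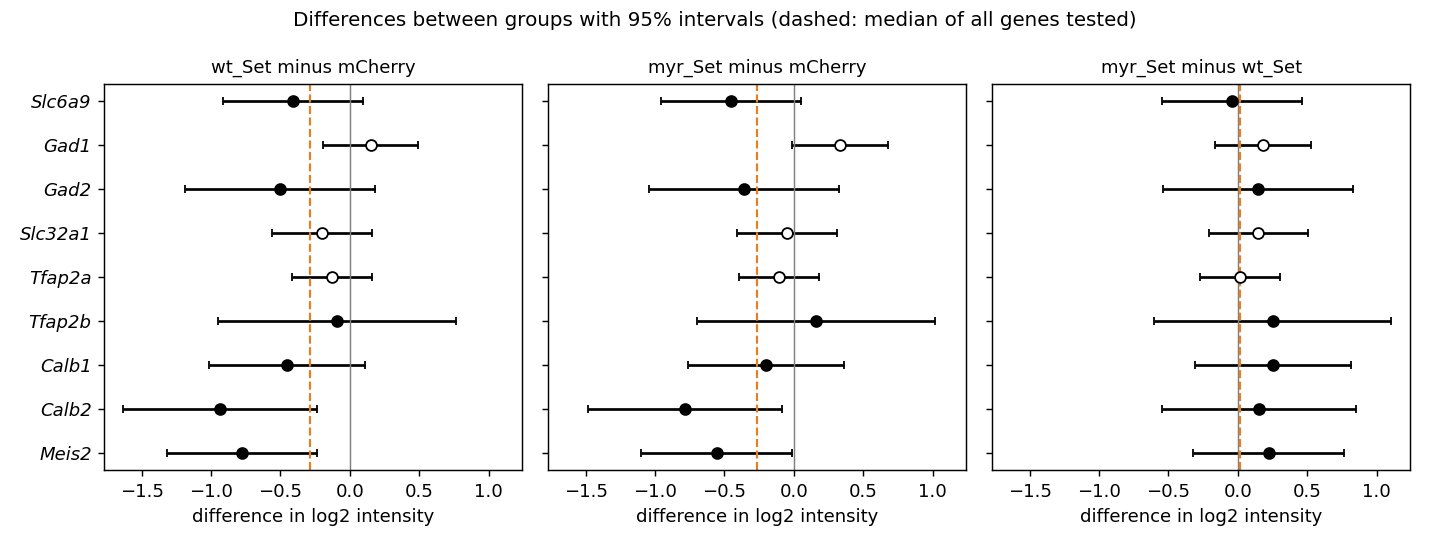
Differences in log2 intensity (horizontal axes) of the 9 markers in the 3 comparisons, with 95% intervals of the limma fit; filled points passed the level filter and open points come from the fit without it, and the dashed line is the median of all single-symbol clusters tested (-0.29, -0.26 and 0.01). Intervals of Calb2 and Meis2 lie below 0 in both comparisons with mCherry, before adjustment for the number of clusters.

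Between the forms of Set none of the 6 members tested passed the threshold, and Gad1, which was not tested, had separate groups as given above. The 6 members tested had differences of myr_Set from wt_Set between -0.04 (Slc6a9) and 0.25 (Calb1 and Tfap2b), with a median of 0.19 beside 0.01 for all genes, and 1 of 6 was below 0, beside 48.5% of clusters. Every adjusted p was 1.0 (limma). The 95% intervals were -0.54 to 0.85 for Calb2, -0.32 to 0.77 for Meis2 and -0.55 to 0.46 for Slc6a9. At an unadjusted p under 0.05 were 0 of the 6 members and 1.13% of clusters, 0.567% lower and 0.567% higher. The groups of 0 of 6 did not overlap, beside 1.76% of clusters lower and 2.63% higher.

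In order of level across groups, mCherry had the highest mean for Slc6a9, Gad2, Slc32a1, Tfap2a, Calb1, Calb2 and Meis2, and wt_Set the lowest for all of these except Slc6a9. Tfap2b had its highest mean in myr_Set, and Gad1 its highest in myr_Set and its lowest in mCherry. Groups next to each other in these orders overlapped for every gene with 2 exceptions, mCherry against myr_Set for Meis2 and wt_Set against myr_Set for Gad1.

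Over the arrays, every pair among 7 of the markers had a positive correlation, and Gad1 and Tfap2b stood apart. On deviations from the group means the correlation turned negative for Calb2 with Meis2 (0.54 to -0.20) and for Slc32a1 with Calb2 (0.22 to -0.23). Of the 36 pairs of members, the highest Pearson correlation over the 9 arrays was that of Slc6a9 with Gad2 (r = 0.87) and the lowest that of Gad2 with Tfap2b (r = -0.61). The correlation was 0.75 for Slc32a1 with Meis2 and 0.71 for Calb1 with Calb2. Between the decarboxylases Gad1 and Gad2 it was -0.28, and between the AP-2 factors Tfap2a and Tfap2b 0.11. All values come from the same 9 arrays, which share an array-wide signal range, and are given as a description.

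**Figure D3:**
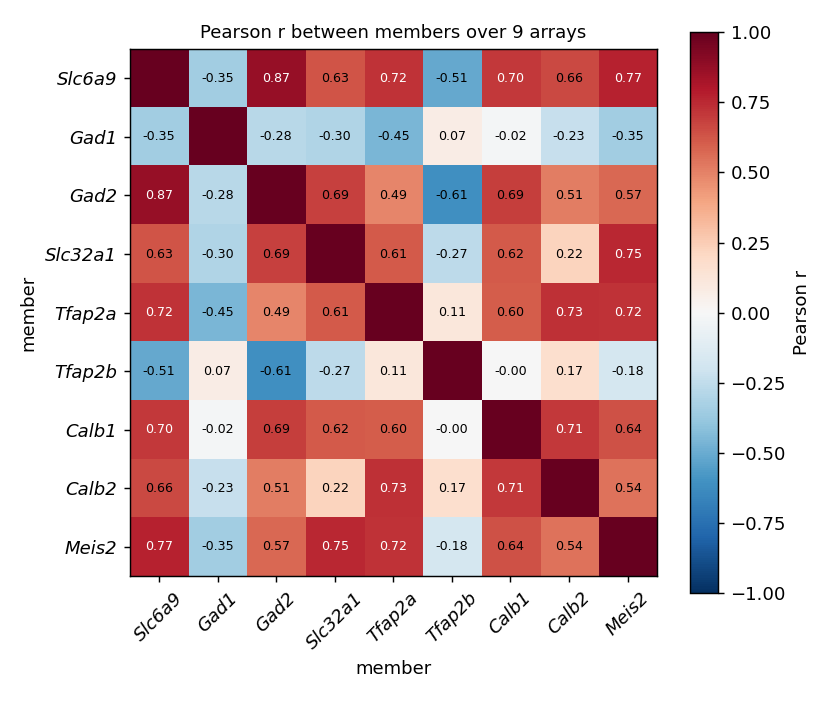
Pearson correlation of log2 intensity over the 9 arrays for each of the 36 pairs of the 9 markers (both axes list the markers; colour and number give r). Gad1 and Tfap2b stand apart from the other 7 genes, with Gad1 between -0.45 and 0.07 and Tfap2b between -0.61 and 0.17.

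Tfap2b instead followed the mean of a list of vessel wall and fibroblast markers. The mean log2 intensity of 13 such markers was 6.15, 6.90 and 7.20 in mCherry, 6.27, 6.78 and 6.97 in wt_Set, and 6.56, 6.81 and 7.04 in myr_Set, again lowest in replicate 1 and highest in replicate 3 of each group. Pdgfrb, the growth factor receptor of pericytes, had 7.06, 8.92 and 9.45 in mCherry, 7.33, 8.37 and 8.86 in wt_Set, and 7.25, 8.60 and 9.19 in myr_Set. Not every marker of the list had this order. The endothelial marker Cdh5 had 6.80, 6.70 and 6.68 in wt_Set and 6.99, 6.80 and 6.71 in myr_Set. The fibroblast marker Dcn was low, with 5.21, 5.25 and 5.13 in mCherry. Over the 9 arrays Tfap2b had a Pearson r of 0.91 with this list (exact permutation p = 0.000135, adjusted p = 0.00608 over 45 relations of 9 markers with 5 cell class lists) and a Spearman rho of 0.98 (exact permutation p = 4.96e-05, adjusted p = 0.00223). The r was 0.85 without the 2 arrays farthest from the median of the list, 0.91 on deviations from the group means and 0.86 with quantile normalization. Arrays of 1 replicate number were too few, 3, for a correlation within them, and the permutation treats the 9 arrays as exchangeable although arrays of 1 number may share a preparation. The 9 members and the lists were chosen with earlier results of these data known. The permutation p-values here and below do not take that choice into account, so they describe the correlations and are no independent test. The summed intensity of the 13 markers was 1039 to 2911 in mCherry, 1162 to 2228 in wt_Set and 1385 to 2476 in myr_Set; the part of these cells in the Tfap2b values was not tested.

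In the deposited values Slc6a9 and Tfap2a followed the ganglion cell markers most closely. Tfap2a exceeded the 90th percentile of the odorant receptors on 0 of 9 arrays. Slc6a9 had a Pearson r of 0.88 with the mean of the 19 markers (exact permutation p = 0.000411, adjusted p = 0.00798) and a Spearman rho of 0.93 (exact permutation p = 0.000750, adjusted p = 0.0169). The r was 0.94 without the 2 farthest arrays, mCherry replicate 1 and myr_Set replicate 1, 0.77 on deviations from the group means and 0.70 with quantile normalization. Tfap2a, whose whole range over the arrays was small, also had an r of 0.88 (exact permutation p = 0.000532, adjusted p = 0.00798) and a rho of 0.92 (exact permutation p = 0.00131, adjusted p = 0.0197), with 0.81 without the same arrays, 0.80 on deviations and 0.71 with quantile normalization. For Gad2 the r was 0.77 (exact permutation p = 0.0171, adjusted p = 0.193) and 0.43 without those arrays, while it was 0.71 on deviations from the group means and 0.79 with quantile normalization. With that normalization Slc32a1 had 0.73, so Slc6a9 and Tfap2a were then not the members closest to the list. Apart from Slc6a9, Tfap2a and Tfap2b, the Pearson correlations of no member with any of the 5 lists passed an adjusted p of 0.05. How many of all genes followed a list as closely was not computed. The correlations are therefore not shown to be particular to these members. With the vascular and fibroblast list Slc6a9 had an r of -0.52, with -0.73 on deviations from the group means and -0.85 with quantile normalization. Gad2 had -0.61, -0.77 and -0.68. Without the 2 arrays farthest from the median of that list, mCherry replicate 1 and wt_Set replicate 1, these were 0.58 and 0.15. The permutation moves arrays freely between groups, although the ganglion cell markers, Slc6a9 and Tfap2a all had lower means in both Set groups. A shared group difference therefore enters these p-values. The mean of the ganglion cell markers was highest on mCherry replicates 1 and 3 and myr_Set replicate 3 (9.58, 9.20 and 9.03). Those arrays also had wide signal ranges (4.54, 4.53 and 4.46), and myr_Set replicate 1 was lowest in both (8.21 and 3.82). On wt_Set replicate 1 the mean was 8.93 at a range of 4.12. The part of the signal range in these correlations was not tested. No p was computed on the deviations or with quantile normalization.

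**Figure D4:**
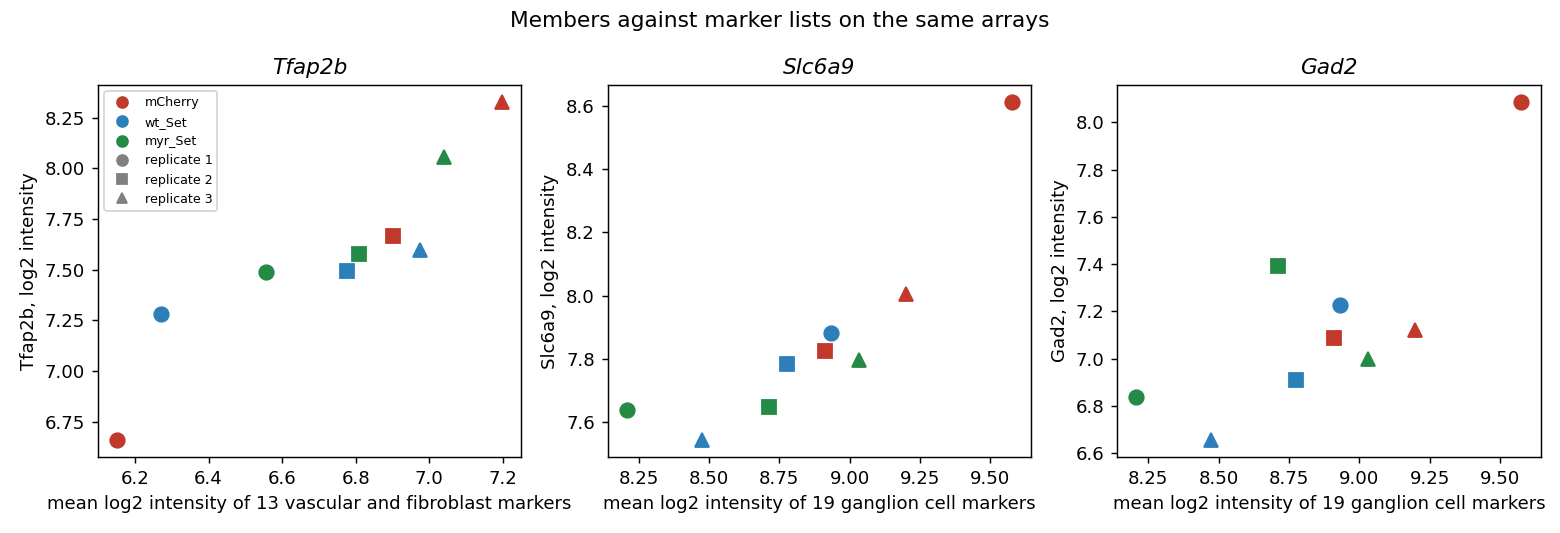
Log2 intensity of Tfap2b, Slc6a9 and Gad2 (vertical axes) against the mean log2 intensity of a marker list (horizontal axes) on the 9 arrays; colours are groups and symbols replicates. Tfap2b is lowest on mCherry replicate 1 (6.66) and highest on mCherry replicate 3 (8.33), at both ends of the vascular and fibroblast list, and mCherry replicate 1 stands apart at the upper right for Slc6a9 (8.61) and Gad2 (8.09).

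The genes most like each member were found among 10517 other genes past the level filter, by Pearson r over the 9 arrays. For Tfap2b these were Icam1, an adhesion molecule (r = 0.99), Ptpn13 and Ston1 (0.97 each). For Slc6a9 they were Bsdc1, Ccm2 (0.99 each) and Nrsn2 (0.98), and for Gad2 Socs2, a suppressor of cytokine signalling (0.98), the neuronal chromatin remodeller Chd5 and Nr2c1 (0.96 each). For Calb2 they were Rpa2, a DNA replication and repair protein, Dis3l (0.98 each) and the peroxisome factor Pex3 (0.97), for Calb1 Cenpv (0.96), Tmem135 and Csdc2 (0.95 each), and for Meis2 Dnajc16 (0.98), neuroglobin Ngb and Fmc1 (0.95 each). No member was among the genes most like another member. These are the best of many genes and carry no test.

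Other genes of amacrine and horizontal cells lay on both sides of mCherry. Of 26 further genes of this kind, 25 were on the array with a single symbol and 13 passed the level filter, of which 8 were below and 5 above mCherry in wt_Set, and 7 below and 6 above in myr_Set. Their medians were -0.15 and -0.04, with 0 past an adjusted p of 0.05. Among all single-symbol clusters tested, 77.2% in wt_Set and 74.5% in myr_Set were below mCherry, with medians of -0.29 and -0.26. The named genes are those with the smallest p. Barhl2, a homeobox factor of both amacrine and ganglion cells, had a difference of -0.48 ± 0.27 (SE) in wt_Set and -0.57 ± 0.27 in myr_Set. Pax6, which retinal progenitors, amacrine and ganglion cells express, had -0.69 ± 0.40 in wt_Set, and Tac1, the substance P precursor, -0.85 ± 0.30 in myr_Set. For myr_Set against wt_Set, Tac1 had -0.38 ± 0.30 and Onecut2 0.18 ± 0.18.

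Of 24 genes of GABA and glycine handling, 12 were tested, and 9 were below mCherry in wt_Set and 8 in myr_Set. Their medians were -0.28 and -0.26, with 0 past the adjusted threshold. These values were near those of all single-symbol clusters tested, 77.2% and 74.5% below mCherry with medians of -0.29 and -0.26. Gphn, the scaffold of inhibitory synapses, had 7.99, 7.44 and 8.07 in mCherry, 7.54, 7.43 and 7.52 in wt_Set, and 6.49, 7.14 and 7.37 in myr_Set. All 3 myr_Set arrays lay below every array of the other groups. Of the clusters tested, 6.85% had all myr_Set arrays below all mCherry arrays and 1.76% below all wt_Set arrays. The Gphn difference of myr_Set from mCherry was -0.83 ± 0.26 (SE), with a limma adjusted p of 0.447. That from wt_Set was -0.50 ± 0.26, with a limma adjusted p of 0.9998. Dld, a subunit of the glycine cleavage system and of other dehydrogenases, had -0.66 ± 0.31 in wt_Set and -0.77 ± 0.31 in myr_Set. Aldh9a1, an aldehyde dehydrogenase that can form GABA, had -0.51 ± 0.34 in wt_Set, and the GABA transporter Slc6a13 had 0.18 ± 0.16 between the forms of Set.

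Of 27 calcium-binding relatives of Calb1 and Calb2, 13 were tested and 12 were below mCherry in each Set group, beside 77.2% and 74.5% of single-symbol clusters tested. Their medians were -0.30 and -0.37, beside -0.29 and -0.26 for those clusters, with 0 past the adjusted threshold. Hippocalcin, Hpca, a neuronal calcium sensor, had -0.49 ± 0.20 (SE) in wt_Set and -0.47 ± 0.20 in myr_Set. Hpcal1, of the same sensor family, had -0.77 ± 0.36 in wt_Set, and Vsnl1, a further one, -0.82 ± 0.27 in myr_Set, with -0.40 ± 0.27 for myr_Set against wt_Set. Parvalbumin, Pvalb, had -0.23 ± 0.18 between the forms.

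Of 21 relatives of the AP-2 and Meis factors, 13 were tested, and 10 were below mCherry in wt_Set and 9 in myr_Set, beside 77.2% and 74.5% of single-symbol clusters tested. Their medians were -0.21 and -0.17, beside -0.29 and -0.26 for those clusters, with 0 past the adjusted threshold. Meis3, the relative of Meis2, had 8.17, 8.05 and 8.05 in mCherry, 7.81, 7.47 and 7.50 in wt_Set, and 7.66, 7.85 and 8.0 in myr_Set. Both Set groups thus lay below mCherry, as they did for Meis2. Such a separation from mCherry was found in 26.4% of clusters tested in wt_Set and in 6.85% in myr_Set. The Meis3 difference was -0.49 ± 0.17 (SE) in wt_Set (limma adjusted p = 0.447) and 0.24 ± 0.17 between the forms of Set. Pbx3, a DNA-binding partner of Meis factors, had -0.92 ± 0.39 in wt_Set and -0.73 ± 0.39 in myr_Set, and Pbx2 -0.76 ± 0.28 in myr_Set. Tfap2e had 0.12 ± 0.17 between the forms.

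Markers of other cell classes were read beside these values; RMA gives no value of 0. Of 16 microglia and macrophage markers 10 were tested, with 7 above mCherry in each Set group, whereas 77.2% and 74.5% of single-symbol clusters tested lay below it. The 16 had summed intensities of 1882 to 2705 in mCherry, 1954 to 3031 in wt_Set and 2020 to 2723 in myr_Set. The 14 photoreceptor and bipolar markers on the array had summed intensities of 1002 to 1149, 1088 to 1176 and 1003 to 1129, and the 11 Müller glia and astrocyte markers 1983 to 2806, 1534 to 1946 and 1708 to 1830. Their part in the members' values was not tested.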

How the data were processed

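Amplified cDNA carrying biotin was read on Affymetrix Rat Gene 2.0 ST arrays, per the design text. For 36685 clusters the deposited values are linear intensity; per the submitters' processing notes and the design text the authors computed them with RMA in Affymetrix Expression Console (no version is given) and scaled each array to its median, 100 on all 9. Dividing by a median leaves differences in signal spread between arrays in place. Precision is limited by the number of arrays.

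In R 4.3.3 the log2 of each value was taken, and 1 model of group means was fitted to all arrays with limma 3.58.1 (lmFit, eBayes, two-sided), for 18343 clusters at or above the median mean level, with Benjamini-Hochberg adjustment and a threshold of 0.05; the fit was tested on simulated data. Gene names came from the platform annotation, updated by gene identifier through RefSeq; 575 clusters with several symbols were not named. The 9 members and the gene lists were chosen with earlier results of these data known, so lists are described by counts and medians. The permutation p-values of members with marker lists do not take that choice into account. All 9 members are named; of each related list, the up to 2 genes with the smallest p per comparison; and for each tested member the 3 genes of highest Pearson r. Alternatives were 2 normalizations, 2 level filters, single-symbol clusters, fits of 2 groups, a robust trended fit, array weights, a replicate block and leaving out each array; those on array overlap and marker correlations were chosen after seeing the data.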

Additional observations from a re-analysis of the deposited data

How the results depend on the processing

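The 3 arrays of each group limit the precision, and the 3 dimmest members (Gad1, Slc32a1 and Tfap2a) never exceeded the 90th percentile of the odorant receptors. Calb2 and Meis2 stayed below mCherry under every alternative in which they were tested, in wt_Set from -1.28 to -0.64 and from -0.88 to -0.58, and in myr_Set from -1.13 to -0.48 and from -0.83 to -0.37.

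No cluster passed the adjusted threshold in any alternative except array weights, where 5903 passed in myr_Set relative to mCherry and 1270 in myr_Set relative to wt_Set; Slc6a9 (-0.41), Calb2 (-0.99) and Meis2 (-0.83) passed in myr_Set against mCherry. These weights did not converge and gave myr_Set replicate 2 99.8% of its group's weight, so the calls compare mainly that array. Gad2 (0.12) and Tfap2b (-0.32) against mCherry and Meis2 between the forms (-0.19) then changed sign, as did Tfap2b in wt_Set after quantile normalization (0.0404) or cyclic loess (0.0808); the cause was not tested. Leaving out 1 array gave Tfap2b -0.54 to 0.30 in wt_Set and -0.29 to 0.55 in myr_Set, and between the forms gave Slc6a9 -0.14 to 0.0303 and Gad2 -0.0126 to 0.29.

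The members' median was -0.25 in wt_Set at the filter of the 75th percentile, where fewer members remain, and in myr_Set -0.15 there, -0.20 with no filter, where all 9 enter, and -0.22 with quantile normalization. Leaving out 1 array gave -0.67 to -0.34 in wt_Set, -0.54 to -0.25 in myr_Set and 0.03 to 0.26 between the forms. Members below all mCherry arrays in myr_Set were 1 after quantile normalization and 1 after cyclic loess. The labels do not say that a replicate number marks a shared preparation. Deviations of arrays with the same number correlated at -0.07 to 0.38, not above 0.1 in every pair. The numbers were therefore not used as pairs, although Tfap2b and the mean of the vascular and fibroblast markers had the same order by number in all 3 groups. With the number as a block 0 clusters passed, Calb2 in wt_Set had -0.93 with a limma adjusted p of 0.428 (0.436 for -0.78 in myr_Set). The block is balanced and cannot move a difference; it took the SE of Tfap2b from 0.38 to 0.28, with adjusted p of 0.850 and 0.755 against mCherry.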
